A study of Mus musculus with 8 samples.

Results

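Cav1, Cav2, Cavin1, Cavin2, Cavin3 and Ehd2 encode the caveolins, the cavins and the neck ATPase of caveolae, and their transcripts were examined in a mouse tumour line and a mouse macrophage line. The 6 genes were taken with every probe set that the platform annotation gave to one of these symbols or to the older aliases Ptrf, Sdpr and Prkcdbp. They made up 15 of the 34945 probe sets with 1 gene symbol, and 6 of 18193 genes. All 6 genes passed the filter on low signals, as did 13196 genes in total, but Cavin1, Cavin2 and Cavin3 passed it only through their signal in CT26 cells.

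Caveolae are small flask-shaped pits of the plasma membrane, abundant in endothelial cells, adipocytes, muscle and fibroblasts. Caveolin-1 is inserted in the inner leaflet as oligomers that bind cholesterol, caveolin-2 joins these oligomers, and the cavins assemble around them as an outer coat. Caveolae flatten when the membrane is stretched, and in fibroblasts and endothelial cells they are linked to endocytosis, lipid handling and signalling by membrane receptors.

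RAW264 cells, called RAW below, are an established mouse macrophage line, and CT26 is an established mouse colon tumour line. Total RNA was measured on 8 Affymetrix arrays, 1 per sample, in 4 groups: RAW co-culture (RAW cells grown with CT26 cells), RAW alone, CT26 co-culture (CT26 cells grown with RAW cells) and CT26 alone. In co-culture CT26 cells lay in the well below, while RAW cells were held in a transwell insert, a cup with a porous floor through which secreted molecules pass while the cells stay apart. For each line 10000 cells were seeded, in 0.5 ml for RAW and 1.5 ml for CT26, and inserts were put into the wells after 8 hours. The length of the co-culture is not given in the sources used here. RAW cells were lysed on the insert, whereas CT26 cells were first detached with trypsin, so harvest and line cannot be told apart. Each group has 2 arrays, from a first and a second experiment, so precision is limited, and groups can fail to overlap by their spread alone. Without a term for the experiment the p-values reflect the spread between 2 experiments. A term for the experiment in each line, called a block, removes the shift between experiments. The p-values then reflect only how far the co-culture change of each line varied between the experiments, on few degrees of freedom.

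The arrays were checked against markers of cell types. In RAW cells 13 of 15 macrophage markers lay above the floor of the arrays, the 40th percentile of each array at 5.21 to 5.28 log2 units, while C1qa and C1qb did not. In CT26 cells 11 of 14 mesenchymal and 9 of 15 epithelial markers lay above the floor in both groups, and the epithelial genes Cdh1, Krt7, Cldn7, Ocln, Dsp and Vil1 did not. The floor did not fully separate the lines. Of the macrophage markers 6 were above it in CT26 co-culture and 8 in CT26 alone, with Cd14 at means of 10.09 and 10.24. In RAW co-culture and RAW alone 8 and 7 mesenchymal and 6 and 5 epithelial markers were above it. Of the endothelial markers 3 of 10 were above the floor in every group, with Pecam1, Cdh5, Tek, Tie1 and Vwf below it, and of the adipocyte markers 0 of 5. Of 7 muscle markers 4 were above the floor in both RAW groups and 5 in both CT26 groups.

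Cav1 and Cav2 lie next to each other on chromosome 6, with starts 25.1 kb apart, and both were lower in co-cultured RAW cells, which is why their promoters are shown. The sequences are the 250 bases before each gene's start in RefSeq (GRCm38.p6, plus strand), with matches to the AP-1 motif and the GC box in capitals. The table held promoters for 5 of the 6 genes, and none for Cavin3.
Cav1 promoter, chr6:17306085-17306334: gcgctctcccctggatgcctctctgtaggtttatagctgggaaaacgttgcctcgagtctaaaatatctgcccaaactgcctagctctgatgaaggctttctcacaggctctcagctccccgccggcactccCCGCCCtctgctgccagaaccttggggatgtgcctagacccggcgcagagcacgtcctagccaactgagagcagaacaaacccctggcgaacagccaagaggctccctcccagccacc
Cav2 promoter, chr6:17280935-17281184: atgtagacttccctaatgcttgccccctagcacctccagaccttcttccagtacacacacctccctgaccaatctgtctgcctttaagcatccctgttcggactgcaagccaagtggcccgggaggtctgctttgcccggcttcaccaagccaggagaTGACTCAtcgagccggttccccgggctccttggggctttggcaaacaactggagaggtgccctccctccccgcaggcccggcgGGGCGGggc

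The Cav2 window held 1 match to the AP-1 motif TGANTCA, which begins 92 bases before the start, and 1 GC box, GGGCGG on either strand, 9 bases before it. The Cav1 window held 1 GC box, 118 bases before the start, and no AP-1 match. Over 32817 mouse promoters of the same length, both strands searched, 6.75% held the AP-1 motif and 32.7% the GC box. The GC content was 59.6% in the Cav1 window and 62.0% in the Cav2 window, against a median of 52.4% over all promoters. A second Cav1 start in RefSeq, chr6:17307390-17307639 for its 250 bases, held none of the 8 motifs searched. Cavin1 and Ehd2 had a GC box, whereas Cavin2, at 40.4% GC, had none. The TEAD motif CATTCC was found in the Cavin1 window and in 12.6% of all promoters. The STAT motif TTCNNNGAA, the ETS motif AGGAAG and the E box CACGTG, present in 7.01%, 29.5% and 6.02% of all promoters, had no match in any window of the 5 genes. CCAAT, present in 33.8%, was found for Cav2, Cavin1, Cavin2 and Ehd2, and TATAAA, present in 12.4%, for Cav1 alone, 221 bases before its start. Matches describe the letters only.

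The first comparison asked which of these genes change in macrophages that share medium with tumour cells. Cav1 and Cav2 were lower in co-cultured RAW cells, by 3.97-fold and 2.24-fold, while the tested probe sets of the cavins lay under the floor on all 4 RAW arrays and Ehd2 did not pass the test. Without a term for the experiment 1 of the 6 genes, Cav2, was called lower. Among all genes 0.0834% were called lower and 0.250% were called in either direction.

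Cav1, the caveolin that is needed to form caveolae outside striated muscle, had 8.55 and 8.98 log2 units in RAW co-culture, against 10.34 and 11.17 in RAW alone (first and second experiment). Both co-culture arrays lay below both arrays of RAW alone, and in each condition the second experiment was higher, by 0.43 in co-culture and 0.83 alone. On its array Cav1 stood at the 76.3 to 79.1 percentile of probe sets in RAW co-culture and at the 89.7 to 94.0 percentile in RAW alone. The change was -1.99 ± 0.27 log2 units (SE, 95% interval -2.64 to -1.34), with -1.79 in the first and -2.19 in the second experiment. Its adjusted p was 0.0585, just above the threshold of 0.05. With the experiment as a block in each line the SE was 0.11 and the adjusted p 0.000285. Over all alternatives the adjusted p ran between 0.000285 and 0.319, the latter with only the RAW arrays. The SD was 0.3 in RAW co-culture and 0.59 in RAW alone, but 0.007 in CT26 co-culture and 0.0044 in CT26 alone. Both SEs pool the spread of all groups, so for this change they are narrower than the RAW arrays by themselves show. In bulk RNA of this kind, fewer cells with the transcript and less of it per cell cannot be told apart.

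Cav2, the partner that forms mixed oligomers with caveolin-1, had 10.51 and 10.55 log2 units in RAW co-culture, against 11.62 and 11.77 in RAW alone. The arrays of a group lay close together and the groups did not overlap. Cav2 fell by 1.16 ± 0.12 log2 units (SE, 95% interval -1.46 to -0.87), with -1.11 and -1.22 in the 2 experiments and an adjusted p of 0.0257. The adjusted p was 0.00146 with the block per line. Leaving out any one array of RAW co-culture, RAW alone or CT26 alone ended the call without a block (adjusted p 0.104 to 0.176), while the change stayed between -1.24 and -1.09. With the block per line both Cav1 and Cav2 were called, where 2.01% of all genes were called lower and 1.55% higher.

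The second, dimmer Cav2 probe set gave between 5.82 and 6.28 log2 units on all 8 arrays, in both lines. It showed neither the change in RAW co-culture (-0.12 ± 0.17) nor the difference of RAW alone from CT26 alone (0.08 ± 0.17) seen with the brighter probe set. Averaged over both probe sets the Cav2 change in RAW co-culture was -0.64, with an adjusted p of 0.0891. Cav1 had 1 probe set, so no second measurement of it was at hand.

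The tested probe sets of the cavins stayed under the floor in RAW cells. Cavin1, also called PTRF, which is needed for caveola formation, had 4.44 and 4.62 log2 units in RAW co-culture and 4.42 and 4.70 in RAW alone. Cavin2 (SDPR), which shapes the caveolar membrane, had 3.99 and 4.30 in RAW co-culture and 3.85 and 4.13 in RAW alone. Cavin3 (PRKCDBP), a further coat subunit, had 4.98 and 4.79 in RAW co-culture and 4.77 and 4.50 in RAW alone. All 12 values were under the floor, and the fitted differences of -0.03 ± 0.16, 0.15 ± 0.18 and 0.24 ± 0.15 are not read as changes. A dim Cavin1 probe set that was not the tested one lay above the floor in RAW, with 5.67 and 5.58 in RAW co-culture and 5.46 and 5.65 in RAW alone, a difference of 0.07 ± 0.14 between overlapping groups.

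Ehd2, the ATPase that holds the caveolar neck at the cell surface, had 6.46 and 6.27 log2 units in RAW co-culture, against 6.07 and 5.96 in RAW alone. Both co-culture arrays were the higher ones. The difference of 0.35 ± 0.13 (SE, 95% interval 0.04 to 0.66) did not pass the test over all genes, with an adjusted p of 0.838 and of 0.106 with the block per line. The signal lay only about 1 log2 unit above the floor, where this processing understates fold changes, and the other 4 Ehd2 probe sets were under the floor on all RAW arrays.

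**Figure D1:**
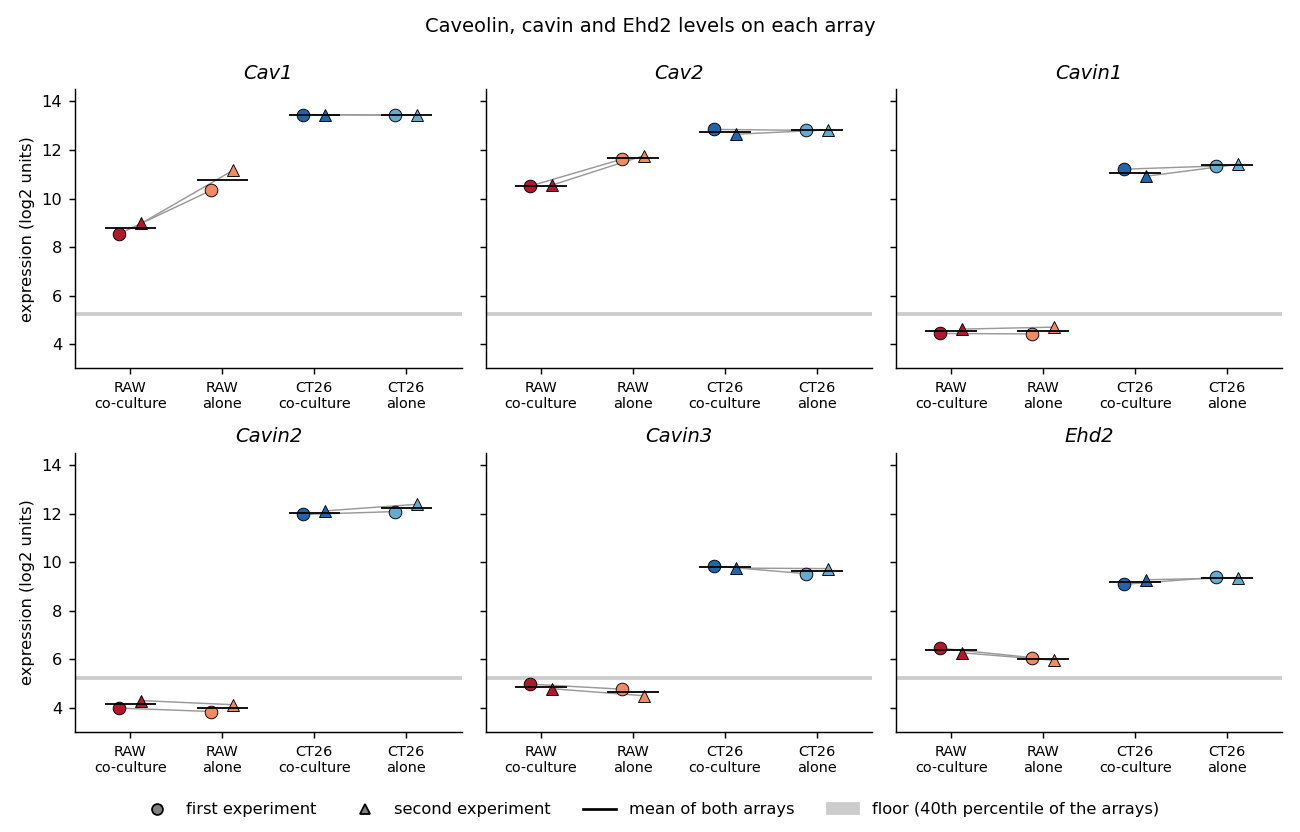
Expression of the 6 genes in log2 units (y axis) on each of the 8 arrays, grouped by line and condition (x axis), with circles for the first and triangles for the second experiment, bars for the mean of both and a grey band for the floor of the arrays. Cav1 and Cav2 are lower in RAW co-culture than in RAW alone, and the tested probe sets of Cavin1, Cavin2 and Cavin3 lie under the floor on all 4 RAW arrays.

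Signals of other cell types were set beside this result. The summed signal of the 15 macrophage markers was 17.17 to 17.25 log2 units in RAW co-culture and 17.19 to 17.29 in RAW alone. Among them Fcgr1, a receptor for IgG, was higher (1.77 ± 0.24) and Adgre1, a macrophage surface antigen, lower (-0.75 ± 0.30) with the block per line (adjusted p 0.00722 and 0.0306), and neither was called without it (0.0585 and 0.916). The epithelial list reached 9.21 to 9.27 in RAW co-culture and 9.18 in RAW alone, with Krt20, Krt18 and Tjp1, which CT26 cells express, under the floor in both RAW groups. The mesenchymal list had 15.43 to 15.66 in RAW co-culture and 15.67 to 15.79 in RAW alone. Of its genes that CT26 cells express, Col3a1, Cdh2 and Twist1 were under the floor in both RAW groups. Col1a2 (6.31 and 6.42), Sparc (6.05 and 6.0) and Fn1 (6.89 and 6.76, means in RAW co-culture and RAW alone) were above it. So were Pdgfrb, Acta2 and the brightest genes of the list in RAW, Vim (14.26 and 14.52) and S100a4 (14.75 and 14.88). Col1a1 (5.3 and 5.25), near the floor, was above it on both arrays of RAW co-culture but not on both of RAW alone. The ranges of the mesenchymal sum nearly touched, with RAW co-culture the lower. Neither Vim nor S100a4 was called, with or without the block per line (adjusted p 0.168 and 0.465 with it). Adgre1 was lower in RAW co-culture, like Cav1 and Cav2, whereas Fcgr1 was higher. The part of these signals in the result was not tested.

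The same genes were then compared in the tumour cells. Of the 6 genes 0 were called in CT26 co-culture, and limma called 0% of the 13196 genes, with or without a block. At an unadjusted p under 0.05 it listed 107 genes without a block and 752 with the block per line, and 0 and 1 of the 6 genes among them. Cav1 had 13.46 and 13.45 log2 units in CT26 co-culture and 13.44 and 13.44 in CT26 alone, so that all 4 arrays were nearly equal. It stood at the 99.1 percentile of each CT26 array, where the highest value of any array was 15.27 to 15.37. The difference was 0.01 ± 0.27 (95% interval -0.64 to 0.66, and -0.25 to 0.28 with the block per line). The fit estimates the spread of a gene over all 4 groups together. For Cav1 the SD was 0.007 in CT26 co-culture and 0.0044 in CT26 alone, but 0.3 in RAW co-culture and 0.59 in RAW alone. These intervals thus also reflect the RAW arrays.

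Cav2 had 12.85 and 12.65 log2 units in CT26 co-culture and 12.81 and 12.83 in CT26 alone, and the groups overlapped. Its difference was -0.07 ± 0.12, with a 95% interval of -0.36 to 0.22. Cavin1 had 11.21 and 10.92 in CT26 co-culture, against 11.34 and 11.41 in CT26 alone. Both co-culture arrays of Cavin1 were below both arrays of CT26 alone, yet the difference of -0.31 ± 0.16 had a 95% interval of -0.69 to 0.07 and an adjusted p of 1.0. With the block per line that interval was -0.57 to -0.05 and the adjusted p 0.831.

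Cavin2 had 11.97 and 12.12 log2 units in CT26 co-culture and 12.09 and 12.39 in CT26 alone, a difference of -0.19 ± 0.18 between overlapping groups. Cavin3 had 9.85 and 9.76 in CT26 co-culture and 9.53 and 9.74 in CT26 alone, a difference of 0.17 ± 0.15. Ehd2 had 9.09 and 9.28 in CT26 co-culture and 9.38 and 9.36 in CT26 alone, a difference of -0.18 ± 0.13. Cavin3 was higher and Ehd2 lower on both co-culture arrays, by less than the test could separate from the spread.

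Whether the co-culture effect differed between the lines was tested as the RAW effect minus the CT26 effect. For Cav1 this difference was -2.0 ± 0.39 log2 units (SE, 95% interval -2.92 to -1.08), with -1.81 and -2.19 in the 2 experiments and an adjusted p of 0.563. For Cav2 it was -1.1 ± 0.17 (95% interval -1.51 to -0.68), with -1.15 and -1.04 and an adjusted p of 0.385. Without a block 0 of the 6 genes were called, and 3 had an unadjusted p under 0.05, Cav1, Cav2 and Ehd2 (0.53 ± 0.18, adjusted p 1.0). Among all 13196 genes 0.00758% were called, and 328 had an unadjusted p under 0.05. With the block per line Cav1 (adjusted p 0.00436) and Cav2 (adjusted p 0.0195) were called, where 0.743% of all genes were. Over the alternatives the adjusted p ran between 0.00436 and 1.0 for Cav1 and between 0.0195 and 1.0 for Cav2.

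**Figure D2:**
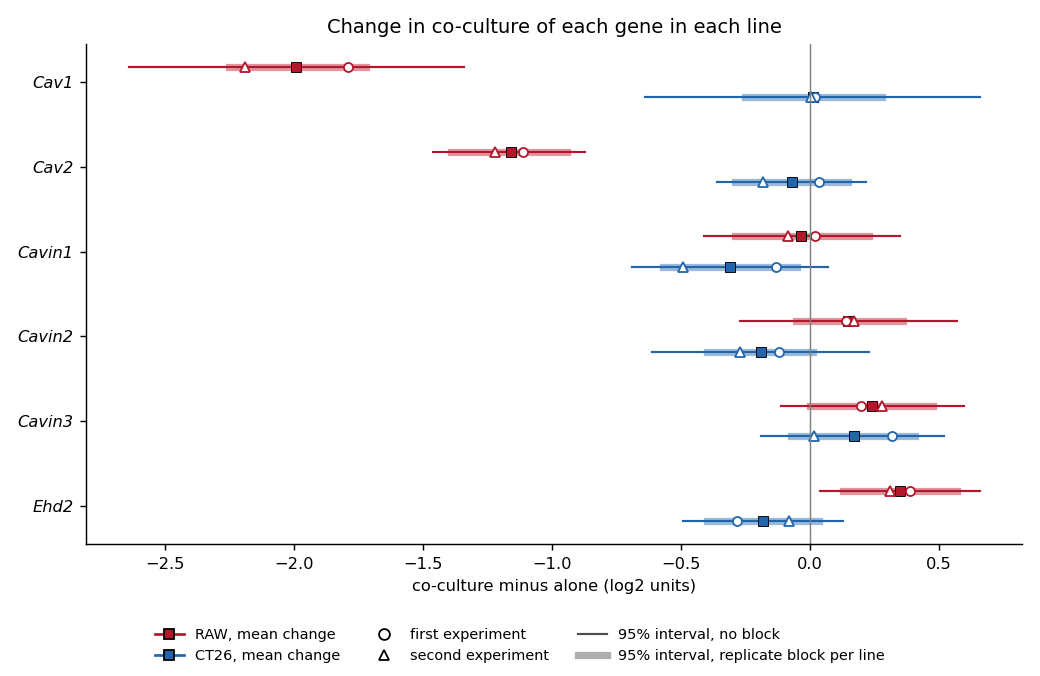
Change in co-culture in log2 units (x axis, co-culture minus alone) of each gene (y axis), in red for RAW and blue for CT26, with squares for the mean, open symbols for each experiment, thin lines for the 95% interval without a block and thick bars for that with a replicate block per line. The intervals of Cav1 and Cav2 in RAW lie below 0, at -2.64 to -1.34 and -1.46 to -0.87 without a block, and those in CT26 span 0.

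The lines themselves were compared alone and in co-culture, on arrays that do not overlap between the comparisons. Cav1, Cav2 and Ehd2 were above the floor in RAW too, and all 3 were called lower in RAW alone than in CT26 alone, where 17.6% of all genes were called lower and 17.0% higher. They were also called lower in RAW co-culture than in CT26 co-culture, where 17.0% of all genes were called lower and 17.7% higher. The 3 cavins entered the tests only through CT26, so that a difference was fixed by the filter, and they are given as values.

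For Cav1 the difference of RAW alone from CT26 alone was -2.69 ± 0.27 log2 units or 6.44-fold (SE, adjusted p 0.000303). Between the co-cultures it was -4.69 ± 0.27 or 25.8-fold (adjusted p 1.85e-05). Cav2 differed by -1.13 ± 0.12 or 2.18-fold alone and by -2.22 ± 0.12 or 4.66-fold in co-culture (adjusted p 0.000432 and 1.45e-05). For both caveolins the order of the groups was thus RAW co-culture, RAW alone and then both CT26 groups, which did not differ beyond their spread. Ehd2 differed by -3.35 ± 0.13 or 10.2-fold alone and by -2.82 ± 0.13 or 7.07-fold in co-culture (adjusted p 2.67e-06 and 5.82e-06).

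Since the tested probe sets of the cavins were under the floor in RAW, their folds are lower bounds set against the floor, and they hold for those probe sets. Cavin1 was at least 70.8-fold lower in RAW alone than in CT26 alone, and at least 57.1-fold lower in RAW co-culture than in CT26 co-culture. Cavin2 was at least 129-fold lower in RAW alone and at least 113-fold lower in RAW co-culture. Cavin3 was at least 21.3-fold lower in RAW alone and at least 23.9-fold lower in RAW co-culture. The measured means behind these bounds were 4.56 against 11.37 for Cavin1, 3.99 against 12.24 for Cavin2 and 4.64 against 9.64 for Cavin3, RAW alone before CT26 alone. By the tested probe sets, RAW cells thus carried caveolin transcripts well above the floor and cavin transcripts at or under it, whereas CT26 cells had all 6 above it.

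The probe sets of a gene did not always give the same picture. All 3 Cavin2 probe sets were under the floor on every RAW array and between 11.39 and 12.39 log2 units on every CT26 array. Of the other Cavin1 probe sets, the brighter one had means of 4.95 in RAW alone and 7.67 in CT26 alone (-2.72 ± 0.21). It was under the floor on both arrays of RAW alone and passed the filter only through CT26, so a difference was fixed by the filter. The dimmest one differed by -0.41 ± 0.14 in RAW alone minus CT26 alone (adjusted p 0.0735 over all probe sets). It lay above the floor on all 8 arrays, between 5.46 and 6.14. Of the 5 Ehd2 probe sets 4 passed the filter, and the dimmest was under the floor on all arrays. In CT26 cells the Ehd2 probe set with the third highest mean was higher in the second experiment, by 1.0 in co-culture and 0.94 alone, whereas the tested one shifted by 0.19 and -0.02. Averaging the probe sets of a gene gave -3.31 for Cavin1 and -2.55 for Ehd2 in RAW alone minus CT26 alone.

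**Figure D3:**
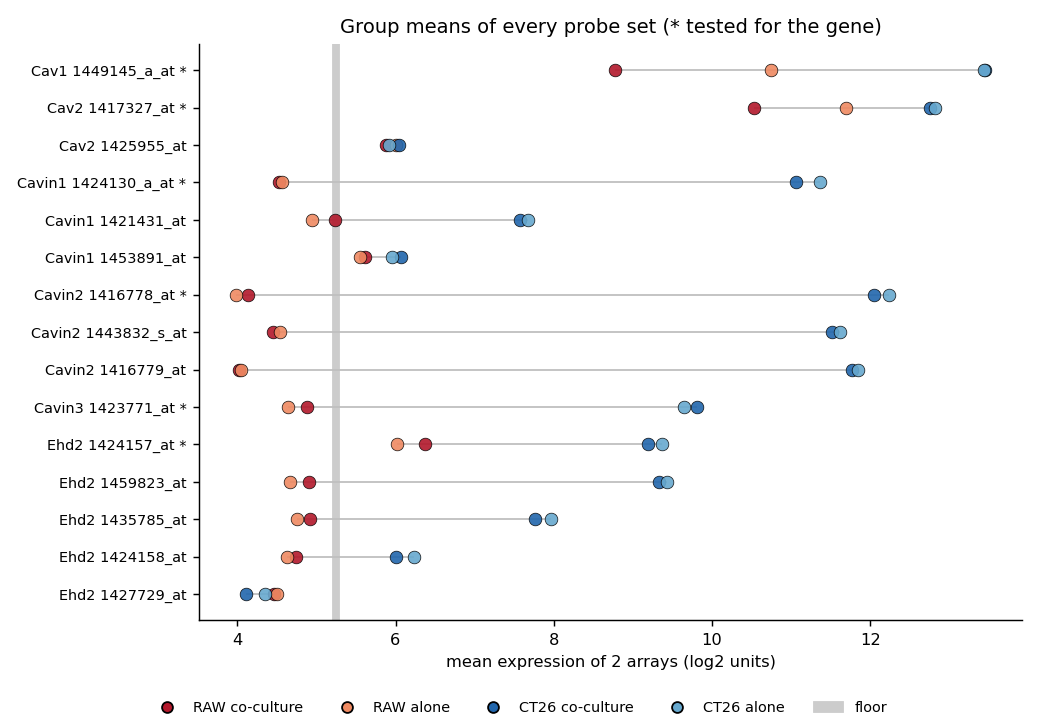
Mean of 2 arrays in log2 units (x axis) of each of the 15 probe sets (y axis) in the 4 groups, with an asterisk on the probe set tested for the gene and a grey band for the floor. The 3 Cavin2 probe sets fall together, whereas the second Cav2 probe set stays near 6 in all 4 groups.

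The genes whose profile over the 8 arrays was most like that of each gene were listed by the root mean square difference of the centred profiles. For Cav2 they were Nrp1 (0.127 log2 units), a receptor for semaphorins and VEGF, Sh3kbp1 (0.153), an adaptor of receptor endocytosis, and Pxdn (0.216), a matrix peroxidase. Nrp1 had 7.22 ± 0.11 log2 units in RAW co-culture and 8.40 ± 0.05 in RAW alone (SD, n = 2 each), a difference of -1.18 ± 0.12 that its choice by likeness to Cav2 makes a description. For Cav1 the nearest profiles were less alike: Ahnak2 (0.373), Ak1 (0.541) and Efna5 (0.603). Cav2 was at rank 446 from Cav1, with a difference of 1.07, after Ehd2 (rank 266) and Cavin3 (rank 441). Seen from Cav2, Cav1 was at rank 9111. The measure also counts how large the differences are, so it parts genes with the same order of groups but an unlike range. From RAW co-culture to RAW alone to CT26 alone the means were 8.77, 10.75 and 13.44 for Cav1 and 10.53, 11.69 and 12.82 for Cav2.

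Cavin1 was most like Wwtr1 (0.127), Vldlr (0.187) and Pla2g7 (0.188), and Cavin2 most like Nefm (0.126), Axl (0.275) and F2r (0.281). Cavin3 was most like Ankrd1 (0.132), Fgf7 (0.133) and Socs2 (0.141), and Ehd2 most like Tnk2 (0.091), Scg5 (0.142) and Bnc2 (0.15). Of the genes near a cavin, Wwtr1, Vldlr, Pla2g7, Nefm, Axl, F2r and Socs2 had means of at most 4.80 log2 units in both RAW groups, under the floor. Ankrd1 was under it too, with means of 5.01 in RAW co-culture and 4.93 in RAW alone. Fgf7 had means just above it, 5.6 and 5.47.

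The protein-coding genes on either side of Cav2 and Cav1 on chromosome 6 were read in the order Tfec, Tes, Cav2, Cav1, Met, Capza2, and were chosen after the values of Cav1 and Cav2 were seen. In RAW co-culture minus RAW alone Tfec, a transcription factor of macrophages, changed by -0.37 ± 0.23, Tes, a focal adhesion protein, by 0.12 ± 0.20, and Capza2, an actin capping subunit, by -0.14 ± 0.15. None of these 3 was called, with or without the block per line. Met, the receptor of hepatocyte growth factor, lay under the floor in RAW (means of 4.64 in co-culture and 4.60 alone) and at 10.49 and 10.55 in CT26 co-culture and CT26 alone. The values for Cav2 and Cav1 were larger in size than those of Tfec, Tes and Capza2, a difference that was not tested.

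**Figure D4:**
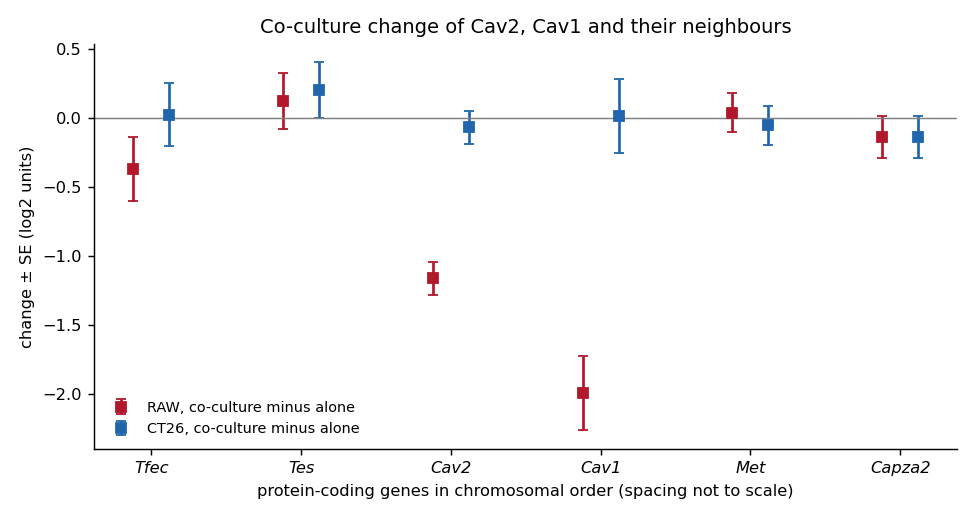
Change in co-culture in log2 units (y axis, mean ± SE of the fit, co-culture minus alone) of Cav2, Cav1 and their neighbours in chromosomal order (x axis, not to scale), red for RAW and blue for CT26. Cav2 and Cav1 in RAW lie at -1.16 and -1.99, and the other points lie between -0.37 and 0.20.

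Other genes of caveolae were described from lists, by their counts and medians. Of 15 tested genes of the caveola coat and neck, 0 were called in RAW co-culture, with or without the block per line. Without the block 0 and with it 2 of them had an unadjusted p under 0.05, as did 694 and 2418 of all 13196 tested genes. The median change of the list was -0.06, beside 0.01 over all genes. In RAW alone minus CT26 alone 4 of the 15 were lower and 1 higher, near the 34.6% of all genes called in either direction, with a median of -0.34 beside -0.05 over all genes. The lower ones were Dnm1 (-3.03 ± 0.43), a dynamin that cuts membrane necks, the muscle cavin gene Cavin4 (-2.32 ± 0.38), the kinase gene Src (-2.09 ± 0.49) and Pacsin3 (-1.84 ± 0.25), a membrane-bending protein. The higher one, named after its value was seen, was Fyn (1.73), a kinase that phosphorylates caveolin-1.

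Of 17 tested receptors and cargo reported in caveolae, 0 were called in RAW co-culture without a block, and 2 had an unadjusted p under 0.05. With the block per line 2 were lower, where 2.01% of all genes were called lower. Tgfbr1, the type I receptor of TGF-beta, had 8.73 and 8.81 log2 units in RAW co-culture, against 9.54 and 9.79 in RAW alone, a change of -0.89 ± 0.14 (adjusted p 0.0854, and 0.0051 with the block). Cd36, a fatty acid and lipoprotein receptor, had 12.99 and 13.38 in RAW co-culture, against 13.85 and 13.85 in RAW alone, a change of -0.67 ± 0.16 (adjusted p 0.344, and 0.0267 with the block). The groups of both genes did not overlap. Between the lines alone 4 were higher in RAW and 6 lower, with a median of -0.29. The largest differences were those of Cd36 (9.38 ± 0.16), Igf1r (-4.51 ± 0.15), Adcy6 (-2.85 ± 0.25) and Lipe (1.84 ± 0.18). Cd36 lay under the floor on every CT26 array, with means of 4.14 in CT26 co-culture and 4.47 in CT26 alone. It entered the test only through RAW, so its difference was fixed by the filter and its size is understated. Over all genes 17.0% were higher and 17.6% lower, and 1 of the 6 lower genes entered the test only through CT26.

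Flotillins and clathrin serve other routes of uptake. Of 16 tested genes of these routes 0 were called in RAW co-culture without a block, and 1 had an unadjusted p under 0.05. With the block per line 1 was higher, Epn2, a clathrin adaptor, with 8.45 and 8.83 log2 units in RAW co-culture and 7.86 and 8.18 in RAW alone (0.62 ± 0.25, adjusted p 0.0136 with the block and 0.908 without). Over all genes 1.55% were called higher with that block. Between the lines alone 1 was higher in RAW, Eps15 (1.37 ± 0.24), and 3 lower, Flot1 (-1.21 ± 0.12), Epn2 (-1.0 ± 0.25) and Ap2a2 (-0.75 ± 0.17), with a median of 0.01. These 4 of 16 lie under the 34.6% called over all genes.

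Caveolin and cavin genes are reported targets of YAP and TEAD factors in other cells. Of 19 tested regulators and targets of YAP, TEAD and SRF, 7 entered the test only through CT26, so that a difference was fixed by the filter. Of the other 12, 5 were lower in RAW alone than in CT26 alone and 2 higher, where 17.6% of all genes were lower and 17.0% higher. The largest differences in the list were those of the receptor kinase gene Axl (-8.27 ± 0.31), the co-activator gene Wwtr1 (-6.55 ± 0.15), the matrix protein gene Ccn2 (-6.14 ± 0.35) and Yap1 (-5.07 ± 0.17), whose means of at most 5.03 in RAW alone lay under the floor, so that these 4 are among the 7 and their sizes are understated. In RAW co-culture 0 of the 19 were called, with or without the block per line, and 0 had an unadjusted p under 0.05 in either fit, with a median of -0.06.

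Of 13 other regulators reported for Cav1, 0 were called in RAW co-culture without a block, and 1 had an unadjusted p under 0.05. With the block per line Klf4, a zinc-finger factor, was lower, with 8.06 and 8.19 log2 units in RAW co-culture and 8.67 and 9.14 in RAW alone (-0.78 ± 0.30, adjusted p 0.0152 with the block and 0.89 without). Egr1, an immediate early factor, was higher with the block, with 8.86 and 10.56 in RAW co-culture and 8.26 and 8.94 in RAW alone (1.11 ± 0.52, adjusted p 0.0431 with the block and 1.0 without), though its groups overlapped. With that block 2.01% of all genes were called lower and 1.55% higher. Between the lines alone Egr1 (-3.5 ± 0.52) and Klf4 (-2.52 ± 0.30) were lower in RAW and Foxo3 (0.93) higher. In CT26 co-culture, and in the difference between the co-culture effects, 0 genes of these 5 lists were called by limma without a block or with a block per line. At an unadjusted p under 0.05 there were 0 to 1 genes per list without a block and 0 to 4 with it. Over all 13196 genes there were 107 and 752 in CT26 co-culture, and 328 and 1508 in the difference between the effects. In RAW co-culture against CT26 co-culture the lists gave 6 calls of 15 for the coat and neck, 9 of 17 for receptors and cargo, 5 of 16 for flotillin and clathrin, 14 of 19 for YAP, TEAD and SRF and 3 of 13 for the other regulators, where 34.8% of all genes were called. Of the 14 calls for YAP, TEAD and SRF, 7 were of genes that entered only through CT26. Cd36, among the 9 calls for receptors and cargo, entered only through RAW.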

How the data were processed

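The authors deposited log2 expression values of 45101 probe sets. The submitters' processing notes name RMA and affy, with versions not given in the sources used here. RMA quantile-normalizes arrays and compresses low signals, which hides shifts in total RNA and understates folds near background.

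Array controls (64) were left out, as were probe sets with several symbols (932) or not listed in the platform annotation (9160). A gene was represented by its probe set with the highest mean, and tested if above the 40th percentile of the array on both arrays of at least 1 group. Group means of all 8 arrays were fitted with limma 3.58.1 (R 4.3.3), a step tried on simulated data. The simulated noise was independent between arrays, unlike the paired arrays here, so it does not show how the fit does with pairing. Two-sided p-values were adjusted by Benjamini and Hochberg's method over 13196 genes, with a threshold of 0.05. Errors are standard errors of this fit.

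Replicate numbers mark the 2 experiments in the labels, and deviations of same-numbered arrays correlated across genes at 0.765 in RAW, 0.754 in CT26 and 0.484 to 0.561 between the lines. The numbers therefore pair the samples. Alternatives were a replicate block shared by the lines or separate per line, other probe-set rules, floors, normalizations and variance moderation, fewer arrays, and each array left out. From each list up to 4 called genes with the largest change were named per comparison, or, with no call, the 2 with the largest statistic, and for each of the 6 genes the 3 nearest profiles. The 6 genes and all lists were chosen with earlier results of these data known.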

Additional observations from a re-analysis of the deposited data

Results flagged for a closer look

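Whether Cav1 and Cav2 were called as differing between the lines in the response to co-culture depended on how the experiment was modelled. The RAW effect minus the CT26 effect was -2.0 ± 0.39 log2 units for Cav1 and -1.1 ± 0.17 for Cav2 (SE), with the same sign in both experiments. The test of this difference passed the threshold with the replicate block per line (limma adjusted p 0.00436 for Cav1 and 0.0195 for Cav2) and did not without a block (0.563 and 0.385) or with a block shared by the lines (0.1 and 0.0954). Of 18 alternatives 2 called these genes, both with the block per line, and with averaged probe sets the Cav2 value was -0.67.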

How the results depend on the processing

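Cav1, Cav2 and Ehd2 were called lower in RAW than in CT26 under each alternative, alone and in co-culture. So were the 3 cavins, whose calls the filter fixes. In CT26 co-culture 0 of the 6 genes were called under any alternative. The count of 1 called gene in RAW co-culture was 2 with the replicate block shared by the lines, with the replicate block per line, with equal medians of bright probe sets, with trend and robust moderation, and with every probe set fitted on its own together with the replicate block per line, an alternative chosen after seeing the data. It was 0 with averaged probe sets or only the compared arrays, and 0 to 1 when an array was left out. The smaller counts with only the compared arrays or with an array left out go with fewer samples. Averaging joins the Cav2 change of -1.16 with the -0.12 of its second probe set, which gives -0.64. For the larger counts the cause was not tested. In the difference between the co-culture effects the count of 0 was 2 with the replicate block per line, also with every probe set fitted on its own.

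Signs turned only for values near 0. Cavin1 in RAW co-culture (-0.032) was 0.11 with averaged probe sets, and ran between -0.17 and 0.11 when an array was left out. Cavin2 in RAW co-culture ran between -0.0029 and 0.31, with -0.0029 without the second RAW co-culture array. Cav2 in CT26 co-culture (-0.069) was 0.031 with averaged probe sets and -0.17 to 0.029 when an array was left out. Cavin3 in the difference between effects (0.075) ran between -0.06 and 0.21. Signals under the floor, as for the tested cavin probe sets in RAW, allow bounds only.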
